A study of Homo sapiens with 6 samples.

Results

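Antigen presentation and interferon-stimulated genes were examined in Hep3B cells, a human hepatocellular carcinoma line, with and without a guide against the transcription factor gene RFX6. The members were 58 genes listed by function: 22 genes of MHC class I and class II antigen presentation and 36 interferon-stimulated genes. A row of the same name was found for 55 of the 58 among the 16721 rows of the deposited counts table. HLA-C, HLA-E and HLA-DPA1 were matched to no row and are not analysed here. After a filter on low counts 43 members could be tested, 14 of antigen presentation and 29 interferon-stimulated, of 12839 genes tested in all.

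The study asked what loss of RFX6 does to hepatocellular carcinoma cells and sequenced RNA from 3 sgControl libraries (genotype WT in the labels) and 3 sgRFX6 libraries. Both groups were Hep3B cells grown without any interferon or other agent named in the labels. In the study's methods the guides were delivered in the lentiCRISPRv2 vector, infected cells were selected with puromycin, and clones grown from single cells were used, so the sgRFX6 libraries may stem from few clones. The sgRFX6 columns of the table carry the name of the guide sg3, and the control columns carry the name cas without a guide. Nothing states that libraries of a group came from separate cultures, so the p-values below measure the spread between these libraries, which may be technical. In bulk RNA, fewer cells that express a gene and less of its RNA per cell cannot be told apart.

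MHC class I molecules carry peptides to the cell surface for CD8+ T cells. The proteasome cuts the peptides, the TAP1-TAP2 transporter moves them into the endoplasmic reticulum, ERAP1 and ERAP2 trim them, and TAPBP loads them onto a heavy chain paired with B2M. NLRC5 drives transcription of class I genes and CIITA that of class II genes, both through an assembly of RFX5, RFXAP and RFXANK on their promoters, and RFX5 belongs to the same protein family as RFX6. Interferons act through JAK kinases and factors such as STAT2 and IRF9 on a promoter element called the ISRE, and the induced genes restrict viruses and widen antigen presentation.

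Promoter windows were read for the ISRE core (the letters TTTC, then 2 bases of any kind, then TTTC again), searched on both strands of RefSeq promoters (GRCh38.p14) that run from 250 bases before to 50 bases after the transcription start. A promoter was matched for 46 of the 58 members, and 26 of these (56.5%) held the core, against 996 of all 27305 promoters (3.65%). It stood in 19 of 28 promoters of interferon-stimulated genes (67.9%) and in 7 of 18 of antigen presentation genes (38.9%). Windows of 30 bases are shown for the called gene DTX3L, for 3 members whose libraries did not overlap between the groups, for the abundant OAS3, and for MX1 and IFI44, which were barely detected. Each is written 5′ to 3′ on the strand of its gene, and capitals mark the core, which appears as its reverse complement in DTX3L, PARP14, OAS3 and MX1.
DTX3L, chr3:122564322-122564351 (+): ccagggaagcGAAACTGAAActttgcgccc
PARP14, chr3:122680800-122680829 (+): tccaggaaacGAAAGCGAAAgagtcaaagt
GBP1, chr1:89065316-89065345 (-): aacgaagtacTTTCAGTTTCatattactct
ERAP1, chr5:96807924-96807953 (-): cgggctccacTTTCACTTTCggtcctgggg
OAS3, chr12:112938321-112938350 (+): agaaagaaacGAAACTGAAAgcagggaatt
MX1, chr21:41420559-41420588 (+): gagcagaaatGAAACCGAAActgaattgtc
IFI44, chr1:78649761-78649790 (+): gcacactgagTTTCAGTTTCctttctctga

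The 21 tested members with the core had a median log2 fold change (sgRFX6 minus sgControl) of 0.27, and 4 of them were higher in every sgRFX6 library than in any sgControl library. The 13 tested members with a promoter but no core had a median of 0.41, and 3 of them were higher in that way. Over all tested genes the median was 0.02, and 12% were higher in that way. The GAS element (TTCNNNGAA) stood in 9 of the 46 member promoters (19.6%) against 7.88% of all promoters, all 9 among interferon-stimulated genes. The Y box letters CCAAT stood in 12 of 18 antigen presentation promoters (66.7%) against 35.7% of all promoters, and the letters GCAAC, part of the X box that RFX5 binds, in 4 of those 18 (22.2%) against 33.7%. The promoters of TAP1 and PSMB9, transcribed away from each other on chromosome 6, shared 13 bases. A match of letters is a description and not a bound site.

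The libraries held 16730386 to 25070793 counts. RFX6 stood at 5.64, 5.83 and 7.34 CPM (counts scaled to a common library size) in the sgControl libraries and at 3.43, 3.71 and 3.50 CPM in the sgRFX6 libraries. All sgRFX6 values lay below all control values, with a log2 fold change of -0.82 (SE 0.26, edgeR adjusted p = 0.142), and a guide that cuts the coding sequence need not remove the transcript. All 12 hepatocyte markers were detected, with ALB at 12.9 to 32.1 CPM and a summed level of 446 to 525 CPM in the control and 360 to 398 CPM in the sgRFX6 libraries. Of these markers 3 were called (25%, against 3.74% of all tested genes). AFP (log2 fold change 2.82, SE 0.32, edgeR adjusted p = 0.00254) and AHSG (1.68, SE 0.27, 0.0119) rose and FGB (-2.45, SE 0.32, 0.00417) fell. Without overlap 4 markers were lower with sgRFX6 (APOB, APOH, FGB and HNF4A) and 3 higher (AFP, AHSG and TF). The shares of all tested genes were 11.2% and 12%. APOB went from a mean of 66.6 to 27.1 CPM and HNF4A from 151 to 126 CPM, and neither was called. In both groups a library stood apart: the chi-square per degree of freedom between libraries of a group was 17.0 for sgControl 1 and 3 and 18.8 for sgRFX6 1 and 2, but 72.3 to 124 for pairs with sgControl library 2 or sgRFX6 library 3. For several members whose log2 fold change moved without one of these libraries, that value is given below.

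Of the 43 tested members, 1 passed edgeR's quasi-likelihood test at an adjusted p of 0.05, the ubiquitin ligase gene DTX3L, which rose (1 of 29 interferon-stimulated genes, 0 of 14 antigen presentation genes). Across all tested genes 480 were called, which is 3.74%, and 1.92% were called higher and 1.81% lower, so the share of members called (2.33%) was near that of all genes. An unadjusted p under 0.05 was reached by 3 antigen presentation genes and 6 interferon-stimulated genes, against 15.6% of all tested genes. In 9 tested members every sgRFX6 library lay above every control library (ERAP1, NLRC5, CIITA, DDX58, GBP1, PARP9, PARP14, DTX3L and IFI35). In no tested member did every sgRFX6 library lie below, while 23.1% of all tested genes had groups that did not overlap (12% above and 11.2% below). Of the untested members with few counts, HLA-DRA and HLA-DRB1 lay below every control in this way, and IFIH1 and IFI44 above. The log2 fold change was positive in 12 of 14 antigen presentation genes (median 0.26) and in 25 of 29 interferon-stimulated genes (median 0.31). Over all tested genes it was positive in 6765 of 12839 (median 0.02). With RLE factors (median ratios to a reference) or plain library sizes in edgeR the positive counts among these members were 11 and 24, since HLA-F and IFI6 had values next to 0.

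**Figure D1:**
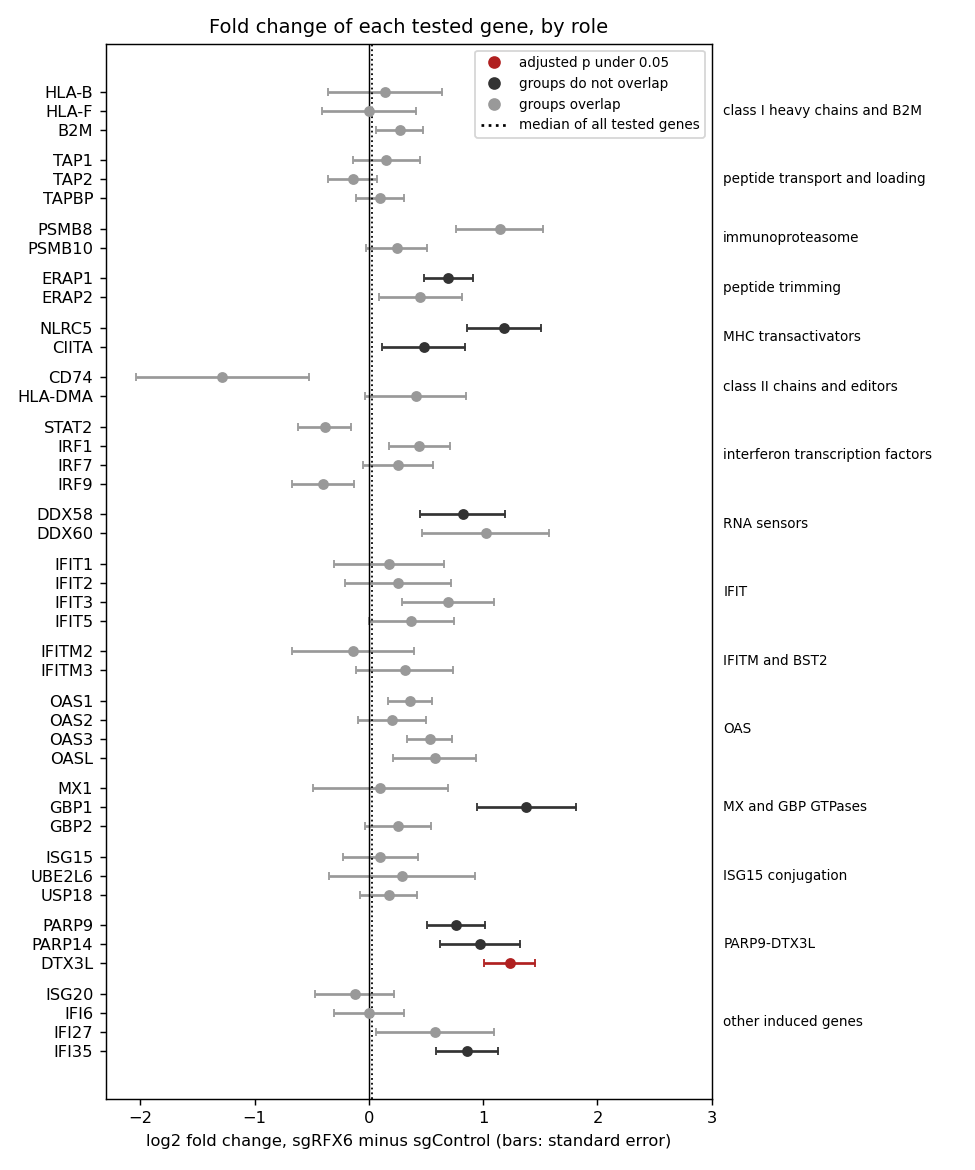
Log2 fold change (sgRFX6 minus sgControl, 3 libraries each) of the 43 tested members on the horizontal axis, grouped by role, with bars for the standard error and a dotted line at the median of all tested genes (0.02). DTX3L (red, 1.23) is the member past the adjusted threshold, the members in black had groups that did not overlap, and CD74 (-1.28) is the lowest value with the widest bar.

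The call count depended on how the libraries that stood apart were treated. With sgControl library 2 and sgRFX6 library 3 both left out, an alternative chosen after the data were seen, edgeR called 9 antigen presentation genes of 15 tested and 13 interferon-stimulated genes of 29, all higher, against 13.7% of all tested genes called higher (1758 of 12826). With limma-voom and sample quality weights 8 and 16 members were called, all higher, against 18.1% of all tested genes called higher.

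DTX3L and PARP9 form a complex that adds ubiquitin and ADP-ribose to proteins at DNA breaks and in interferon signalling, and PARP14 is an ADP-ribosyltransferase encoded beside them. DTX3L (chromosome 3, 122564238 to 122575203) was at 12.1, 11.2 and 9.28 CPM in the sgControl libraries and at 24.4, 22.8 and 29.3 CPM in the sgRFX6 libraries. The lowest sgRFX6 library lay well above the highest control, and the mean rose from 10.9 ± 1.46 to 25.5 ± 3.37 CPM (SD, n = 3). The log2 fold change was 1.23 (SE 0.22, edgeR adjusted p = 0.0192). The two-sided exact permutation test gave p = 0.1, the smallest that 3 against 3 libraries can give.

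PARP9 was at 3.13, 3.73 and 3.58 CPM in the control and 6.06, 5.28 and 6.40 CPM with sgRFX6. The groups did not overlap, and the log2 fold change of 0.76 (SE 0.25) had an edgeR adjusted p of 0.167. PARP14 was at 11.1, 12.4 and 9.89 CPM in the control and 19.1, 12.7 and 33.6 CPM with sgRFX6. The groups parted only narrowly at sgRFX6 library 2, and the log2 fold change was 0.97 (SE 0.35, edgeR adjusted p = 0.199). Without sgRFX6 library 3 it was 0.52 (SE 0.24, edgeR adjusted p = 0.236). All 3 genes had an unadjusted p under 0.05.

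The genes of this locus share a neighbourhood and, in part, bases. DTX3L and PARP9 start from opposite strands and their annotated spans overlap by 340 bases. The counting is not stated to use strand, so reads from the shared bases cannot be assigned between them. The nearest 50 tested genes around all 3 had a median log2 fold change of 0.49, and with that median subtracted DTX3L stood at 0.74 (SE 0.22, edgeR adjusted p = 0.155). DTX3L stayed past the threshold without sgRFX6 library 2 (adjusted p = 0.0422) or sgRFX6 library 3 (0.0216). It missed the threshold without sgControl library 1 (0.0582), 2 (0.0507) or 3 (0.122) or sgRFX6 library 1 (0.0768), with a log2 fold change of 1.12 to 1.32 over all 6 of these fits.

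**Figure D2:**
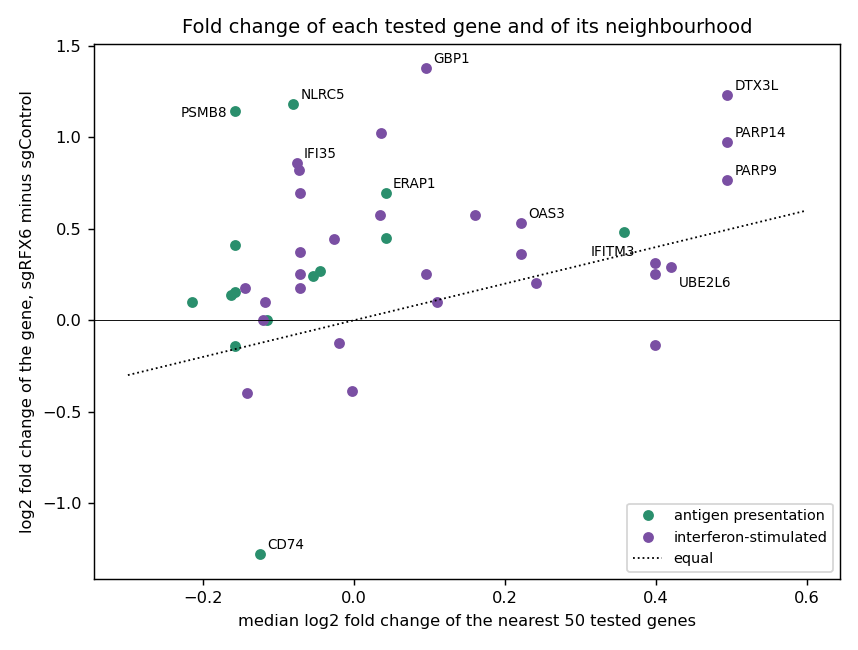
Log2 fold change of each tested member (vertical axis) against the median log2 fold change of its nearest 50 tested genes (horizontal axis), with a dotted line where the values are equal. DTX3L, PARP14 and PARP9 sit at the right edge with a neighbourhood median of 0.49, while NLRC5 and PSMB8 differ by more than 1 from neighbourhoods below 0.

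Neighbourhoods with a positive median also held the IFITM genes and IRF7 on chromosome 11 (0.40), UBE2L6 on the same chromosome (0.42), CIITA (0.36), and OAS1 and OAS3 on chromosome 12 (0.22). With the neighbourhood subtracted, IFITM3 stood at -0.09, IRF7 at -0.15 and UBE2L6 at -0.13, so their small positive values were no larger than those of their neighbours. The genes of the MHC on chromosome 6 lay in the opposite setting, with medians between -0.22 (TAPBP) and -0.11 (HLA-F). What moved the neighbourhoods was not tested.

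Antigen presentation genes of class I were expressed unevenly. Per kilobase of exon, B2M stood at 116 RPKM in the control libraries and the heavy chain genes HLA-B and HLA-F at 2.57 and 1.34 RPKM. B2M, the light chain of class I, was at 238, 353 and 239 CPM in the control and 336, 299 and 366 CPM in the sgRFX6 libraries. Control library 2 lay among the sgRFX6 values, and the log2 fold change of 0.27 (SE 0.20) had an edgeR adjusted p of 0.606. It was 0.48 without that library, and 0.17 to 0.48 with each library left out in turn. HLA-B, a classical heavy chain, was at 2.26, 7.49 and 2.46 CPM in the control and 6.21, 4.15 and 3.13 CPM with sgRFX6. The highest value came from control library 2, and the log2 fold change was 0.14 (SE 0.50, edgeR adjusted p = 0.945) with this library and 0.92 (SE 0.36, edgeR adjusted p = 0.283) without it. With each library left out in turn the HLA-B value ranged from -0.17 to 0.92. HLA genes share near-identical stretches, so the authors' counting could have split their reads. HLA-F, a less variable heavy chain, had a log2 fold change of 0.00 (SE 0.41).

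The transporter and loading genes did not separate the groups. TAP1 was at 11.9, 21.8 and 12.2 CPM in the control and 19.0, 18.2 and 13.9 CPM in the sgRFX6 libraries, with the highest value again in control library 2 (log2 fold change 0.15, SE 0.30, edgeR adjusted p = 0.887, and 0.50 without that library). With each library left out in turn the TAP1 value ranged from 0.00 to 0.50. TAP2, its partner, and TAPBP, the loading factor tapasin, had log2 fold changes of -0.14 and 0.10.

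PSMB8, PSMB9 and PSMB10 encode the immunoproteasome subunits that replace the constitutive catalytic subunits. PSMB8 was at 3.32, 6.32 and 2.72 CPM in the control and 11.6, 9.55 and 6.27 CPM in the sgRFX6 libraries. The groups touched at control library 2 and sgRFX6 library 3, and the log2 fold change of 1.14 (SE 0.38) had an edgeR adjusted p of 0.170. PSMB9 was near the detection limit at 2, 12 and 3 counts in the control and 13, 12 and 5 counts with sgRFX6, and was not tested. The annotated span of PSMB9 overlaps that of TAP1 by 8770 bases and that of PSMB8 by 568 bases on the opposite strand. PSMB10 had a log2 fold change of 0.24 (SE 0.27), and the 3 constitutive subunits PSMB5, PSMB6 and PSMB7 lay between -0.23 and -0.08 with none called.

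ERAP1, the aminopeptidase that trims class I peptides, was at 17.9, 19.5 and 15.5 CPM in the control and 28.1, 24.8 and 32.9 CPM in the sgRFX6 libraries. No value of one group reached the other, and the log2 fold change was 0.70 (SE 0.21, edgeR adjusted p = 0.137). ERAP2, which also trims these peptides, overlapped between the groups at 0.45 (SE 0.36), and at 0.06 without sgRFX6 library 3.

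NLRC5, the class I transactivator, was at 5.98, 5.99 and 8.25 CPM in the control and 15.2, 21.1 and 9.68 CPM in the sgRFX6 libraries. Every sgRFX6 library was above every control, with sgRFX6 library 3 closest to them. The log2 fold change was 1.18 (SE 0.32, edgeR adjusted p = 0.0930), the smallest adjusted p among antigen presentation genes. Without sgRFX6 library 3 it was 1.43 and passed the threshold (adjusted p = 0.0220). This was the only fit with a library left out that passed, over a range of 0.88 to 1.43 (edgeR adjusted p 0.0220 to 0.259). DESeq2 also called NLRC5 (adjusted p = 0.0120), as it did 6.97% of all tested genes. Of the genes named above that NLRC5 is known to act on, HLA-B, B2M and TAP1 had overlapping groups. Their values moved without sgControl library 2, as given above. Whether NLRC5 acted on them here was not tested.

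CIITA, the class II transactivator, was at 0.82, 0.85 and 0.86 CPM in the control and 1.09, 1.57 and 0.91 CPM in the sgRFX6 libraries. These values rest on 17 to 25 counts a library, and the log2 fold change of 0.48 (SE 0.36) had an edgeR adjusted p of 0.609. The class II chains were barely detected. HLA-DRA had 4, 2 and 3 counts in the control libraries and 0 in each sgRFX6 library, HLA-DRB1 had 2, 4 and 1 against 0, and HLA-DPB1 had 2, 0 and 1 against 0. These counts are too few to tell absence from low level. CD74, the invariant chain that guards the class II groove, was at 11, 52 and 10 counts in the control and 15, 2 and 8 counts with sgRFX6. The log2 fold change of -1.28 (SE 0.76, edgeR adjusted p = 0.486) turned on control library 2 and was -0.18 without it. HLA-DMA, which helps load class II peptides, was at 2.03 to 6.44 CPM over the 6 libraries (log2 fold change 0.41, SE 0.44, and 1.10 without sgControl library 2), and its partner HLA-DMB at 5 to 11 counts was not tested. With each library left out in turn the HLA-DMA value ranged from 0.14 to 1.10.

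**Figure D3:**
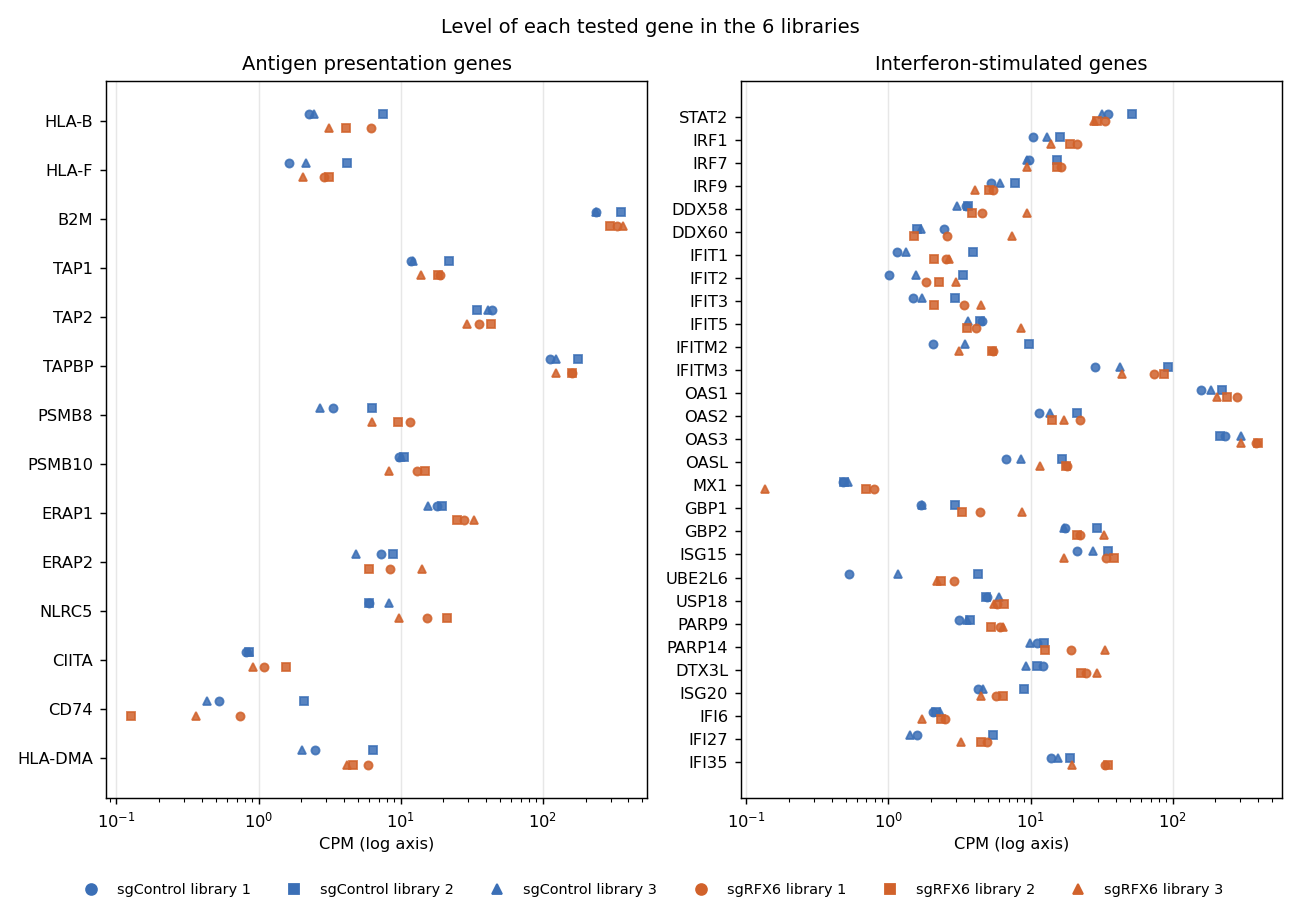
CPM of each tested member in each library on a logarithmic axis, with sgControl libraries in blue and sgRFX6 libraries in orange and a marker shape for each library number. For DTX3L, ERAP1 and NLRC5 the colours part, whereas for HLA-B, TAP1 and IFITM3 the blue square of sgControl library 2 lies at the right, among or beyond the orange markers.

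Among interferon transcription factors, STAT2 and IRF9, parts of the complex that binds the ISRE, had negative values. STAT2 was at 35.0, 51.4 and 31.8 CPM in the control and 33.5, 29.2 and 27.8 CPM in the sgRFX6 libraries (log2 fold change -0.39, SE 0.23, edgeR adjusted p = 0.497). IRF9, the DNA-binding part, was at 5.30, 7.78 and 6.13 CPM in the control and 5.41, 5.09 and 4.09 CPM in the sgRFX6 libraries (-0.40, SE 0.27, edgeR adjusted p = 0.560). In both genes the groups overlapped. IRF1, an early factor in the response to interferon gamma, was at 10.4, 16.2 and 13.1 CPM in the control and 21.1, 19.0 and 13.9 CPM in the sgRFX6 libraries (0.44, SE 0.26, edgeR adjusted p = 0.491). IRF7, which amplifies type I interferon, had a log2 fold change of 0.25 (SE 0.30).

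The RNA sensor gene DDX58, which encodes RIG-I, was at 3.52, 3.60 and 3.02 CPM in the control and 4.57, 3.90 and 9.40 CPM in the sgRFX6 libraries. The groups did not overlap, but sgRFX6 library 3 lay far above the other two, and the log2 fold change was 0.82 (SE 0.37, edgeR adjusted p = 0.337). Without that library it was 0.33 (SE 0.28, edgeR adjusted p = 0.513). DDX60, a helicase that acts with RIG-I, was at 1.51 to 2.58 CPM in 5 libraries and at 7.45 CPM in sgRFX6 library 3. Its log2 fold change was 1.02 with that library and 0.12 without it. IFIH1, the sensor MDA5, had 6 to 9 counts in the control and 13, 8 and 23 counts in the sgRFX6 libraries and was not tested.

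IFIT proteins bind foreign RNA. IFIT1 was at 1.16, 3.93 and 1.34 CPM in the control and 2.53, 2.07 and 2.68 CPM with sgRFX6, and the log2 fold change of 0.18 (SE 0.48) had an edgeR adjusted p of 0.926 and was 0.96 (edgeR adjusted p = 0.194) without sgControl library 2. With each library left out in turn the IFIT1 value ranged from -0.12 to 0.96. IFIT2, IFIT3 and IFIT5 had log2 fold changes of 0.25, 0.70 and 0.37, and none of the 4 was called or parted the groups. Among the IFITM genes, whose products block viral entry, IFITM3 was at 28.3, 93.2 and 42.8 CPM in the control and 73.6, 86.6 and 43.9 CPM in the sgRFX6 libraries (0.31, SE 0.42, edgeR adjusted p = 0.822). Control library 2 held its highest value, and without it the log2 fold change was 0.93 (edgeR adjusted p = 0.247). With each library left out in turn the IFITM3 value ranged from -0.0006 to 0.93. IFITM2 had a log2 fold change of -0.14 (SE 0.53), and IFITM1 had 51 counts in control library 2 and 3 to 12 in the other 5. IFITM genes are near-identical copies, and the annotated spans of IFITM1 and IFITM2 overlap by 1767 bases, so their counts are uncertain. BST2, the tether that holds budding viruses, had 0 to 4 counts a library.

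OAS enzymes make the activator of RNase L, and OAS1 and OAS3 were, together with IFITM3, the most abundant interferon-stimulated members per kilobase of exon. Per kilobase of exon OAS1 stood at 45.9 RPKM, IFITM3 at 45.2 RPKM and OAS3 at 31.8 RPKM in the control libraries, followed by ISG15 at 29.5 RPKM, while OAS2 and OASL stood at 2.48 and 3.24 RPKM. OAS1 was at 158, 224 and 185 CPM in the control and 282, 240 and 207 CPM in the sgRFX6 libraries (log2 fold change 0.36, SE 0.19, edgeR adjusted p = 0.434), and OAS3 was at 233, 214 and 303 CPM against 385, 398 and 301 CPM (0.53, SE 0.20, edgeR adjusted p = 0.221). In OAS3 the groups overlapped by the narrow gap between control library 3 and sgRFX6 library 3. OAS2 and the related OASL had values of 0.21 and 0.58, both with overlapping groups.

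MX1, the antiviral GTPase often used as a marker of interferon action, was at 0.48, 0.49 and 0.52 CPM in the control and 0.80, 0.69 and 0.14 CPM in the sgRFX6 libraries (log2 fold change 0.10, SE 0.59, edgeR adjusted p = 0.967). MX2 had 0 to 12 counts and was not tested. GBP1, a guanylate-binding GTPase induced by interferon gamma, was at 1.69, 2.92 and 1.73 CPM in the control and 4.42, 3.27 and 8.77 CPM in the sgRFX6 libraries. The groups did not overlap and the log2 fold change of 1.38 was the largest among the tested members, with SE 0.43 and an edgeR adjusted p of 0.143. Without sgRFX6 library 3 it was 0.86 (SE 0.37, edgeR adjusted p = 0.213), below NLRC5 at 1.43 and DTX3L at 1.12. GBP2 overlapped between the groups at 0.25 (SE 0.29), and at 0.03 without sgRFX6 library 3. GBP genes on chromosome 1 are close copies whose reads the counting could have split.

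ISG15, a ubiquitin-like protein attached to others after interferon, was at 21.1, 34.8 and 27.5 CPM in the control and 33.7, 38.7 and 17.1 CPM in the sgRFX6 libraries. Library 3 of sgRFX6 was the lowest of all 6, and the log2 fold change was 0.10 (SE 0.33, edgeR adjusted p = 0.940). Its conjugating enzyme UBE2L6 was at 0.53, 4.29 and 1.17 CPM in the control and 2.18 to 2.88 CPM in the sgRFX6 libraries (0.29, SE 0.64). Without sgControl library 2 its log2 fold change was 1.52 (SE 0.42, edgeR adjusted p = 0.130). With each library left out in turn the UBE2L6 value ranged from -0.15 to 1.52. The deconjugating enzyme USP18 had a value of 0.17 (SE 0.25).

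IFI35, an interferon-induced protein that binds NMI, was at 13.9, 19.0 and 15.6 CPM in the control and 33.6, 34.8 and 19.7 CPM in the sgRFX6 libraries. The groups parted by a narrow gap between control library 2 and sgRFX6 library 3, and the log2 fold change was 0.86 (SE 0.27, edgeR adjusted p = 0.148). Without sgRFX6 library 3 it was 1.08 with an adjusted p of 0.0240. This was the only fit with a library left out that passed the threshold, over a range of 0.71 to 1.08 (edgeR adjusted p 0.0240 to 0.413). IFI27 overlapped between the groups at 0.58 (SE 0.52), or 1.48 without sgControl library 2, IFI6 at 0.00 (SE 0.30), and ISG20, an exonuclease that degrades RNA, at -0.12 (SE 0.35). With each library left out in turn the IFI27 value ranged from 0.27 to 1.48. IFI44 had 0 to 2 counts a library, IFI44L had 2 counts in sgRFX6 library 3 and 0 in the other 5, and XAF1 had 0 to 6, so these 3 were not tested. OAS1 and OAS3 at over 100 CPM therefore stood beside MX1, MX2, IFI44 and IFI44L at under 1 CPM in every library. The table holds 816 rows named by assembled transcripts with no gene name, and reads of a gene could have been counted there.

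Of the 34 members whose groups overlapped, 16 (47.1%) had every sgRFX6 library above the controls once sgControl library 2 was left out, against 8.05% of the 9867 tested genes with overlapping groups. This library lay above both other control libraries in 33 of the 43 members (76.7%), against 40.9% of all tested genes, and was the highest of all 6 libraries in 15 members (34.9%) against 23.4%. Its median deviation from the control mean on the log2 scale was 0.38 for antigen presentation genes and 0.35 for interferon-stimulated genes. With this library left out of the ranking, every sgRFX6 library lay above the remaining controls in 25 of 43 members and below them in 0, against 18.1% and 16.2% of all tested genes. The 25 were 8 antigen presentation genes, HLA-B, B2M, TAP1 and HLA-DMA among them, and 17 interferon-stimulated genes, including IRF1, IFIT1, IFITM3 and OAS1. The library was picked after the data were seen and was high in most members, so both counts without it follow in part from that choice. No such ranking was made without another library. The refitted medians were 0.20 and 0.15 without sgControl library 1, and 0.20 and 0.27 without sgControl library 3. The refitted median without sgControl library 2 was 0.50 for antigen presentation genes and 0.77 for interferon-stimulated genes, and edgeR called 0 of 45 tested members (3.05% of all tested genes), with 19 at an unadjusted p under 0.05 (15.2% of all tested genes in that fit).

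Library 3 of sgRFX6 was the highest of all 6 libraries in 12 members (27.9%), against 28.6% of all tested genes. These 12 were B2M, DDX58, DDX60, DTX3L, ERAP1, ERAP2, GBP1, GBP2, IFIT3, IFIT5, PARP14 and PARP9. They had exons with 37.4% to 44.4% GC, while the 43 members ranged from 37.4% to 66.8% with a median of 51.6%. The 15 members highest in sgControl library 2 had 42.2% to 59.0%, with a median of 55.4%. Members highest in sgRFX6 library 2, among them NLRC5, IFI35 and ISG15, had 51.6% to 63.4%. Across the 43 members the Spearman correlation of the deviation from the group mean with GC content was -0.81 in sgRFX6 library 3 and 0.67 and 0.71 in sgRFX6 libraries 1 and 2. Over 12208 genes with a GC value in the same libraries it was -0.85, 0.66 and 0.73. In sgControl libraries 1, 2 and 3 it was -0.57, 0.41 and 0.05 over these genes and -0.40, 0.20 and 0.08 over the members. Each deviation is taken from the mean of its own group, so the values of libraries in a group depend on each other. With a correction for GC content in the fit, edgeR called NLRC5 (log2 fold change 1.19, adjusted p = 0.0171), PSMB8 (1.16, 0.0438), IFI35 (0.89, 0.00677), PARP14 (0.86, 0.0492) and DTX3L (1.20, 0.00210), which is 5 of 43, all higher, against 5.9% of all tested genes called higher.

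**Figure D4:**
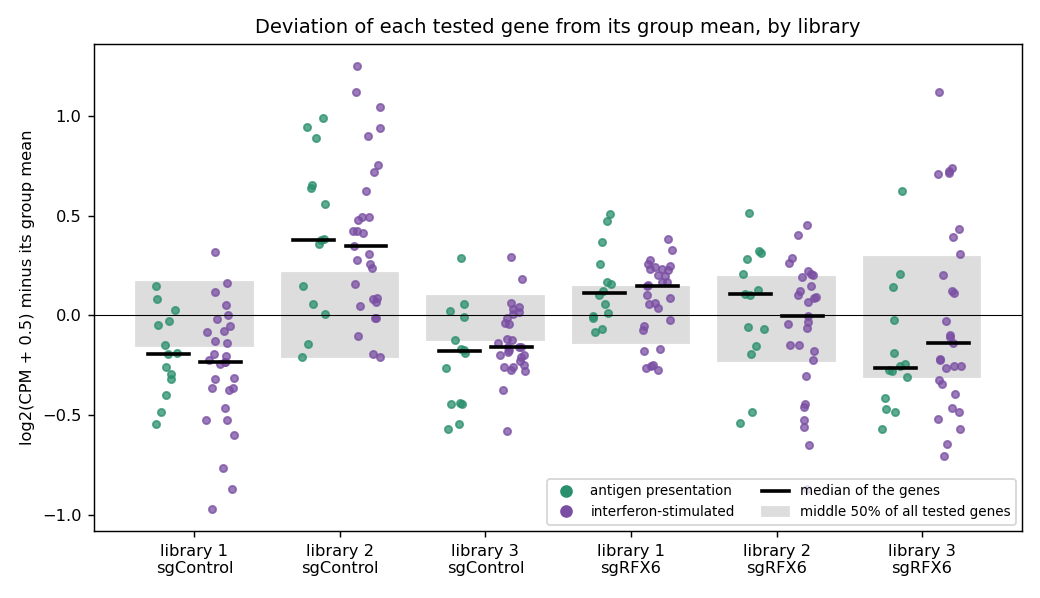
Deviation of each tested member from its group mean, in log2(CPM + 0.5), for the 6 libraries, with black lines at the medians of the antigen presentation (green) and interferon-stimulated (purple) genes and grey boxes for the middle 50% of all tested genes. The medians in sgControl library 2 (0.38 and 0.35) stand above the grey box, and those of the other control libraries lie below 0.

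Genes around the members gave the following counts, beside 3.74% of all tested genes called. Of the 7 listed components of the RFX and CIITA assembly all 7 were tested and 0 were called, with RFX5 at -0.48 (SE 0.19, edgeR adjusted p = 0.246, every sgRFX6 library below every control), RFXAP at -0.26 (SE 0.39) and RFXANK at -0.12 (SE 0.26). Of 14 listed interferon receptors, kinases and feedback genes 12 were tested and 1 was called, SOCS3, an inhibitor of JAK signalling. SOCS3 rose from 0.87, 1.74 and 1.90 CPM to 6.71, 7.86 and 5.31 CPM (log2 fold change 2.13, SE 0.36, edgeR adjusted p = 0.0141), and without sgRFX6 library 1 its adjusted p was 0.0588. Of 21 listed sensing genes upstream of interferon 9 were tested and 0 called. Of 21 further presentation genes 14 were tested and 1 was called, CTSS, a protease that cleaves the invariant chain.

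CTSS rose from 0.48, 1.66 and 0.60 CPM to 5.76, 2.89 and 5.50 CPM (log2 fold change 2.35, SE 0.52, edgeR adjusted p = 0.0421). It missed the threshold without sgControl library 1 (adjusted p = 0.103) or 3 (0.169) or sgRFX6 library 1 (0.136) or 3 (0.0705). Of 40 further interferon-stimulated genes 30 were tested and 2 were called (6.67%, against 3.74% of all tested genes), NMI and GBP3. NMI, the partner of IFI35, rose from 0.92, 0.61 and 0.47 CPM to 4.27, 3.27 and 5.63 CPM (2.72, SE 0.39, edgeR adjusted p = 0.00683) and remained past the threshold in all 6 fits that left out a library. GBP3 rose from 4.87, 4.94 and 2.55 CPM to 12.9, 9.55 and 22.2 CPM (1.85, SE 0.39, edgeR adjusted p = 0.0361) and is a close copy of GBP1 and GBP2. It stayed called without sgRFX6 library 2 and missed the threshold without any other library, with adjusted p from 0.0520 (sgRFX6 library 3) to 0.145 (sgControl library 3). The median over the 30 was 0.23.

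Markers of leukocytes, cells that express many of these genes, differed in their summed level. Of 10 markers 9 had a row and 5 were tested. Their summed level was 4.72 to 7.86 CPM in the control and 10.3 to 12.7 CPM in the sgRFX6 libraries. ITGAM, an integrin of myeloid cells, made the largest contribution in each library and rose from 2.79, 3.69 and 2.72 CPM to 7.20, 8.92 and 6.04 CPM (log2 fold change 1.26, SE 0.28, edgeR adjusted p = 0.0449). The defining marker PTPRC lay under 1 CPM in every library (log2 fold change -0.06, SE 0.55), and CD3E and CD53 had 0 counts in 5 libraries and 1 count in sgRFX6 library 3. Endothelial markers summed to 11.6 to 13.5 CPM in the control and 13.3 to 19.6 CPM in the sgRFX6 libraries. Of 5 endothelial markers 3 had a row and 1 was tested, PECAM1, which made up most of this sum. PECAM1 was at 11.9, 11.4 and 13.0 CPM in the control and 19.3, 13.2 and 17.2 CPM with sgRFX6. It was not called (log2 fold change 0.46, SE 0.23, edgeR adjusted p = 0.401). VWF went the other way, from 10, 6 and 13 counts to 5, 1 and 1 counts. Fibroblast markers summed to 25.6 to 32.6 CPM in the control and 21.3 to 56.1 CPM in the sgRFX6 libraries. The highest fibroblast sum came from LUM, a matrix proteoglycan, at 54.7 CPM in sgRFX6 library 3. Of the 4 fibroblast markers tested 2 were called, both lower, against 1.81% of all tested genes called lower. COL1A1, a collagen chain, fell from 5.45, 4.78 and 5.27 CPM to 1.09, 1.70 and 0.91 CPM (log2 fold change -2.08, SE 0.33, edgeR adjusted p = 0.0108). PDGFRA, a growth factor receptor, fell from 36, 33 and 69 counts to 2, 3 and 0 counts (edgeR adjusted p = 0.0120). The part of these markers in the member values was not tested.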

How the data were processed

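RNA of 6 Hep3B samples was measured, 3 sgControl and 3 sgRFX6. After Trizol extraction and Illumina sequencing the authors deposited 1 table of raw counts per gene. The submitters' processing notes name GRCh38 (hg38), and the aligner, counting program and annotation are not given in the sources used here. Columns were assigned by name and replicate number, and the cas columns were taken as sgControl, the only control group. A row without a gene name (at most 9.17e-05% of a library) was left out.

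Counts were tested with edgeR 4.0.16 in R 4.3.3 (filterByExpr, minimum count 10, minimum total 15, TMM, quasi-likelihood test, Benjamini-Hochberg adjustment over 12839 genes, threshold 0.05). The common biological coefficient of variation was 0.269. Alternatives used DESeq2 1.42.0, limma 3.58.1, other filters and scaling, a GC correction (loess span 0.3), the median of the nearest 50 genes, a replicate block, and each library left out. On simulated data for the same comparison (12914 genes tested), edgeR recovered 99 of 100 genes changed by 2 on the log2 scale and 100 of 100 changed by 3. The simulation gave all genes the same dispersion and held no library that stood apart. The largest log2 fold change among the tested members was 1.38, so recovery of changes of their size was not tested. A count below 10 gives little precision, and all errors between libraries cover these libraries only.

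GENCODE release 29 (GRCh38) supplied gene spans, exon lengths and GC content, in which 15422 row names matched by symbol and 262 by another symbol. The members and lists were chosen with earlier results of these data known. Members with an adjusted p under 0.05 and 18 fixed members were to be named. Further members with groups that did not overlap or with a small p were chosen after their values were seen. So were AFP, AHSG, FGB, APOB, APOH, HNF4A, TF, COL1A1, PDGFRA, LUM, ITGAM, PTPRC, CD3E, CD53, PECAM1 and VWF among the markers. Of the genes that were to be named, 1 is not reported here.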

Additional observations from a re-analysis of the deposited data

How the results depend on the processing

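The count of antigen presentation genes called (0) was 2 with DESeq2, 8 with limma-voom and quality weights, 2 with the GC correction, 2 with the GC correction and replicate block, and 0 to 1 with a library left out. The count of interferon-stimulated genes called (1) was 16 with limma-voom, 3 with the GC correction, 2 with the GC correction and replicate block, 0 with the regional correction, and 0 to 2 with a library left out. The median of the interferon-stimulated genes was 0.59 with limma-voom and 0.15 to 0.77 with a library left out. RFX6 passed the threshold with limma-voom at -0.96 (adjusted p = 0.00274). Without sgControl library 2 and sgRFX6 library 3, an alternative chosen after seeing the data, the counts were 9 and 13, the medians 0.64 and 0.61, RFX6 -0.87 (adjusted p = 0.0345), and IFITM2 turned from -0.14 to 0.95. These alternatives also moved the share of all genes called: 6.97% with DESeq2, 31.1% with limma-voom, 10.7% with the GC correction and 25.2% without both libraries. The cause of the shifts was not tested.

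Same-numbered libraries of the groups deviated with correlations of -0.48, 0.20 and -0.10 over 12839 genes, and sgControl library 1 with sgRFX6 library 3 at 0.61. The deviations also followed GC content (Spearman -0.85 in sgRFX6 library 3), so these correlations cannot show whether the replicate numbers mark a shared culture or day. With the number as a replicate block 648 genes were called (5.05%), 0 and 1 of them members, with medians of 0.30 and 0.40. The 12 members with too few counts to pass the filter were not tested, and why their counts were low was not examined. With 3 against 3 libraries an exact permutation test cannot give a p under 0.1.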
